A study of Mus musculus with 6 samples.

Results

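The AP-1 and immediate early genes described here are Jun, Junb, Jund, Fos, Fosb, Fosl1, Fosl2, Egr1, Ier2 and Myc, chosen by symbol. All 10 are among the 17460 gene symbols of the table, and all 10 passed the filter on low values, under which 17297 genes reached 1 in 3 or more livers. The members were picked as a family with the difference between the groups already known, so that difference is given below as a description of these livers and not as a test. The values that chose them were their levels in control against Blnc1 LKO livers. There is no cutoff, so no gene lies just inside or just outside a threshold.

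Liver mRNA was sequenced from 6 C57BL/6 mice of 9 months, 3 control and 3 Blnc1 LKO, all on the NASH diet D09100301 for 24 weeks. This diet leads to obesity with steatohepatitis. Blnc1 is a long noncoding RNA. Blnc1 LKO (liver knockout) mice are Cas9 transgenic mice whose livers received an adenovirus with guide RNAs against Blnc1 by the tail vein, and the study names a GFP adenovirus in Cas9 transgenic mice as control for its cohort on a high-fat diet. Such a virus enters hepatocytes well and other liver cells poorly, so the endothelial, stellate and immune cells of a Blnc1 LKO liver are hardly reached, and by the study's account deletion in hepatocytes is also incomplete. The comparison asks how the AP-1 and immediate early genes stood in NASH livers of control mice and of mice given guide RNAs against Blnc1, in a study that also examined JNK phosphorylation and cell death.

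AP-1 is a dimer of basic leucine zipper proteins. JUN proteins pair with each other or with FOS proteins, FOS proteins need a JUN partner to bind DNA, and the dimer binds TGAGTCA. Immediate early genes are transcribed within minutes of a growth factor, cytokine or stress signal without new protein synthesis. Phosphorylation by ERK, JNK and p38 kinases of factors such as ELK1 and JUN starts this transcription, the mRNAs are short-lived, and phosphatases such as DUSP1 end the signal. In liver they are known for their rise after partial hepatectomy and injury, and Jun in hepatocytes for survival under stress.

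The normalized values below are the authors' reads per gene after scaling each liver by its size factor. Counted reads per liver ranged from 65384969 to 89350181. The loss of Blnc1 RNA itself was not analysed here. In limma on log2(value + 1), 1 gene, Hamp (higher in Blnc1 LKO livers), passed an adjusted p under 0.05 (Benjamini-Hochberg), and it is no member. Livers of 1 group were separate samples by their counts, as chi-square over degrees of freedom was 20.8 to 32.3 in control pairs and 43.8 to 70.0 in Blnc1 LKO pairs, highest for Blnc1 LKO replicates 1 and 2.

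The promoters of 4 members hold a stretch that ATF, CREB or JUN proteins are known to bind, in whole or in its core TGACG, and are shown because these genes answer to the same signals. RefSeq windows (GRCm38.p6, 250 bases before to 50 after the start site) matched 6 of the 10 members, namely Jun, Junb, Jund, Fos, Fosb and Fosl2. The stretches below are 30 bases each, 5′ to 3′ on the strand of the gene, with the matched letters in capitals. They lie at chr4:95052249-95052278 (− strand) for Jun, chr8:84978837-84978866 (− strand) for Junb, chr12:85473812-85473841 (+ strand) for Fos and chr7:19310087-19310116 (− strand) for Fosb.
Jun: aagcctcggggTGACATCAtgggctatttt
Junb: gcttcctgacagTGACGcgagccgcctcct
Fos: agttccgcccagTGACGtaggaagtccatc
Fosb: ggagttgcgggTGACGCAagcgcgggggcg
TGACATCA and TGACG were chosen for the search after these windows had been read. The first capital lies 45 bases before the start site in Jun, 106 in Junb, 66 in Fos and 60 in Fosb. Searched on both strands, TGACATCA is in 3.62% and TGACG in 20.8% of the 32851 mouse promoter windows of the same length. TGACG is in 3 of the 6 member windows, with a further match 129 bases before the start of Fos. TGACGCA, which contains TGACG, is in 2.12% of all windows and in 1 of the 6. None of the 6 windows holds TGAGTCA or its reverse complement TGACTCA (5.20% of all windows), TGACGTCA (1.79%) or a CArG box, the site of SRF (1.63%). Bases outside these windows were not searched, so such sites may lie further from the start. GGGCGG, the GC box, is in 4 of 6 (Jun, Fos, Fosb and Fosl2) and in 35.7% of all windows. TATAAA is in 2 of 6 (Fos and Junb) and in 13.6%. In Junb it begins at the start site itself, and before the start site TATAAA is in 1 of 6 windows (12.4% of all). The RefSeq window of Jund lies upstream of the start of the GENCODE gene model, and its letters may not be those of the start site used in these livers. In Junb the RefSeq start site, from which its distances are given, also lies upstream of the GENCODE start.

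The JUN genes were the most abundant members. Jun encodes the JUN protein that JNK phosphorylates (GRCm38 chromosome 4, 95049034 to 95052222). It had 4306, 4667 and 4511 in controls, against 2285, 3333 and 3995 in Blnc1 LKO livers. Every Blnc1 LKO liver lay below every control liver, and the gap between the lowest control and the highest Blnc1 LKO liver was much smaller than the spread among the Blnc1 LKO livers. Relative to the control mean, the Blnc1 LKO livers stood at 50.8%, 74.1% and 88.9%. The log2 difference was −0.52 (standard error 0.17, n = 3 livers per group).

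Jund encodes a JUN protein that most cells make without a stimulus (chromosome 8, 70698949 to 70700616). It had 6523, 6255 and 5558 in controls, against 3759, 5570 and 5954 in Blnc1 LKO livers, a log2 difference of −0.29 (standard error 0.16). Replicate 1 of the Blnc1 LKO livers was far below the rest, and replicates 2 and 3 lay between the lowest and the highest control value. Junb encodes a JUN protein that can oppose JUN at some promoters (chromosome 8, 84974484 to 84978718). It had 2283, 2618 and 2356 in controls, against 1951, 2637 and 2216 in Blnc1 LKO livers, a log2 difference of −0.10 (standard error 0.11). The groups overlapped, and the highest of the 6 livers was Blnc1 LKO replicate 2.

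The FOS genes were lower in level per kb of transcript than the JUN genes. Fos, the classical immediate early gene (chromosome 12, 85473890 to 85477273), had 433, 618 and 410 in controls, against 237, 342 and 542 in Blnc1 LKO livers. The groups overlapped, as Blnc1 LKO replicate 3 was above 2 of the 3 control livers, and the log2 difference was −0.44 (standard error 0.28). Fosb, a close relative of Fos (chromosome 7, 19302696 to 19310051), had 99.8, 93.8 and 76.7 in controls, against 47.6, 93.0 and 128 in Blnc1 LKO livers. The Blnc1 LKO livers held both the lowest and the highest of the 6 values, and the Blnc1 LKO mean was 99.4% of the control mean.

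Fosl2 encodes FRA2, a FOS protein without the strong activation domain of FOS (chromosome 5, 32135801 to 32157842). It had 1392, 1816 and 1407 in controls, against 1291, 1518 and 1808 in Blnc1 LKO livers. The group means differed by less than the spread between livers, with a log2 difference of −0.00 and a 95% interval from −0.32 to 0.32. Fosl1 encodes FRA1, itself a target of AP-1 (chromosome 19, 5447547 to 5455946), and was barely detected. It had 6, 4 and 8 reads in controls, against 1, 3 and 0 reads in Blnc1 LKO livers. These read counts did not overlap between the groups, but they are near the limit of detection at this depth, since 0 reads in Blnc1 LKO replicate 3 allows a normalized value of up to 2.51 (3 reads, counting error only). The log2 difference of Fosl1 moved from −1.77 with a pseudocount of 1 to −3.05 with a pseudocount of 0.1, so its size is not fixed by these data.

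Among the other immediate early factors, Egr1 encodes a zinc finger factor induced through SRF and ELK1 (chromosome 18, 34859823 to 34864984). It had 1671, 2413 and 2219 in controls, against 1176, 1692 and 1812 in Blnc1 LKO livers. The lowest control liver, replicate 1, lay below 2 of the Blnc1 LKO livers, and the log2 difference was −0.44 (standard error 0.18). Ier2, a small nuclear immediate early protein (chromosome 8, 84661331 to 84662852), varied least, with 1438, 1478 and 1404 in controls, against 1235, 1552 and 1404 in Blnc1 LKO livers. Its log2 difference was −0.05, with a 95% interval from −0.25 to 0.15.

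Myc encodes a growth factor-responsive transcription factor of ribosome and cell cycle genes (chromosome 15, 61985391 to 61990374). It had 834, 1154 and 1057 in controls, against 1013, 2013 and 799 in Blnc1 LKO livers. A single liver, Blnc1 LKO replicate 2, stood at 198% of the control mean, and the other Blnc1 LKO livers at 99.8% and 78.7%. The log2 difference of Myc was 0.23 with all livers and −0.16 without Blnc1 LKO replicate 2. Myc was the single member with a log2 difference above 0.

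**Figure D1:**
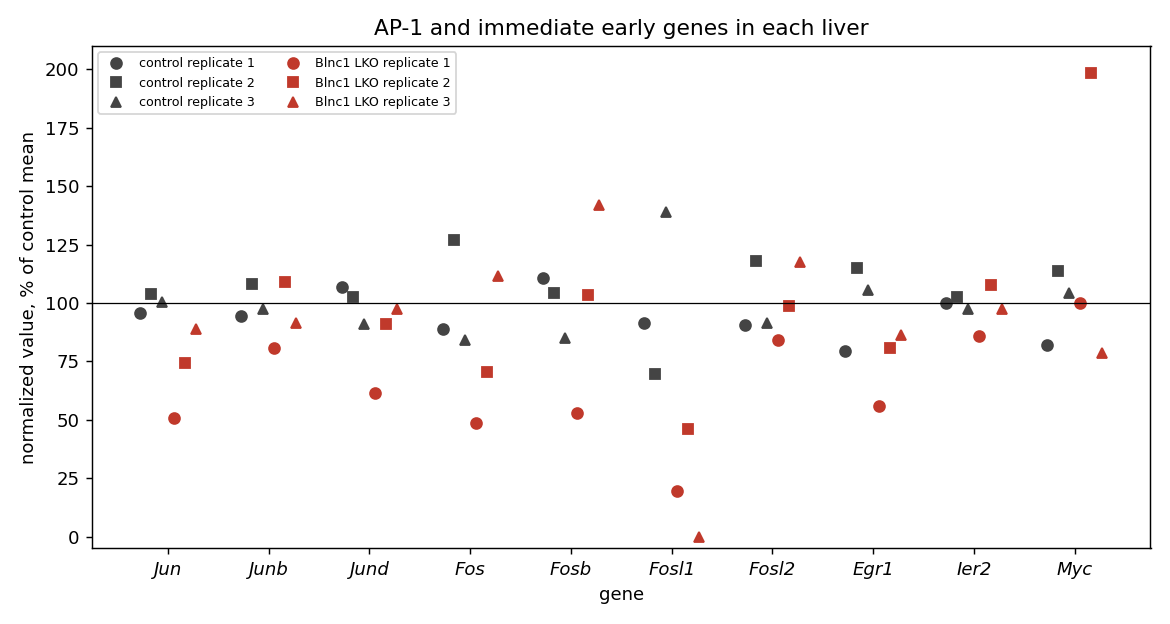
Normalized value of each gene in each liver, as a percentage of the control mean (vertical axis), for the 10 genes (horizontal axis); grey symbols are control and red symbols Blnc1 LKO livers, and the shape gives the replicate number. Blnc1 LKO replicate 1 (red circles) is the lowest liver for 8 of the 10 genes, and Myc in Blnc1 LKO replicate 2 stands at 198%.

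Of the 10 members, 8 lay lower on average in Blnc1 LKO livers, as had 49.4% of all genes tested. In 2 members, Jun and Fosl1, every Blnc1 LKO liver lay below every control liver (5.28% of all genes tested), and in 0 members above (5.35%). With adjustment over all genes, 0 of the 10 passed 0.05 in limma, where 0.00578% of all genes passed. In edgeR's quasi-likelihood test and in DESeq2 on the recovered reads, 0 members passed as well, beside 0.0116% and 0.486% of all genes (in DESeq2 0.26% higher and 0.225% lower). At an unadjusted p under 0.05 in limma, Jun, Fosl1 and Egr1 were lower, 3 of 10 beside 2.74% of all genes, and 0 were higher, beside 2.94%. As the members were chosen with this difference in view, nothing is read from these shares. In whole liver, fewer cells of a type and less RNA per cell cannot be told apart. The library kit does not keep the strand. Reads on the overlaps of Jun with Junos, Jund with Gm11175, Junb with Prdx2 and Fosl1 with Ccdc85b, all on the opposite strand, may therefore have been left out or assigned to the partner.

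A single liver was lowest for most members. Blnc1 LKO replicate 1 was the lowest of the 6 livers for 8 of the 10 members, as it was for 24.4% of all genes tested, and the exceptions were Fosl1 and Myc, which were lowest in replicate 3. Averaged over the 10 members, the log2 value of the Blnc1 LKO livers stood −0.68, −0.09 and −0.27 from the control mean. Control livers stood between −0.08 and 0.10. Fosl1, with 1, 3 and 0 reads in the Blnc1 LKO livers, counts as much as any other member and pulls this mean down in each. The 3 JUN genes alone stood −0.66, −0.14 and −0.11 from the control mean. The 4 FOS genes, Fosl1 included, stood at −0.95, −0.32 and −0.46, and Egr1, Ier2 and Myc at −0.34, 0.27 and −0.19. For Jun, Jund, Fos, Fosb, Fosl2 and Egr1, replicate 1 was the lowest and replicate 3 the highest of the Blnc1 LKO livers, an order shared by 16.7% of all genes. Among control livers, replicate 2 was the highest for 7 of the 10 members (32.1% of all genes).

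The median log2 difference over the 10 members was −0.20, beside −0.00 over all genes tested, and with each liver left out it ranged from −0.42 (without Blnc1 LKO replicate 3) to −0.04 (without Blnc1 LKO replicate 1). Without Blnc1 LKO replicate 1 the log2 difference was −0.30 for Jun and −0.25 for Egr1, and −0.15 for Fos. It was 0.00 for Junb, 0.28 for Fosb, 0.12 for Fosl2 and 0.04 for Ier2, so 5 members remained below 0. Jun, Jund, Fos, Fosl1 and Egr1 had log2 differences below 0 in the fit without any 1 of the 6 livers. For Jun these ranged from −0.70 to −0.30 and for Egr1 from −0.59 to −0.25.

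**Figure D2:**
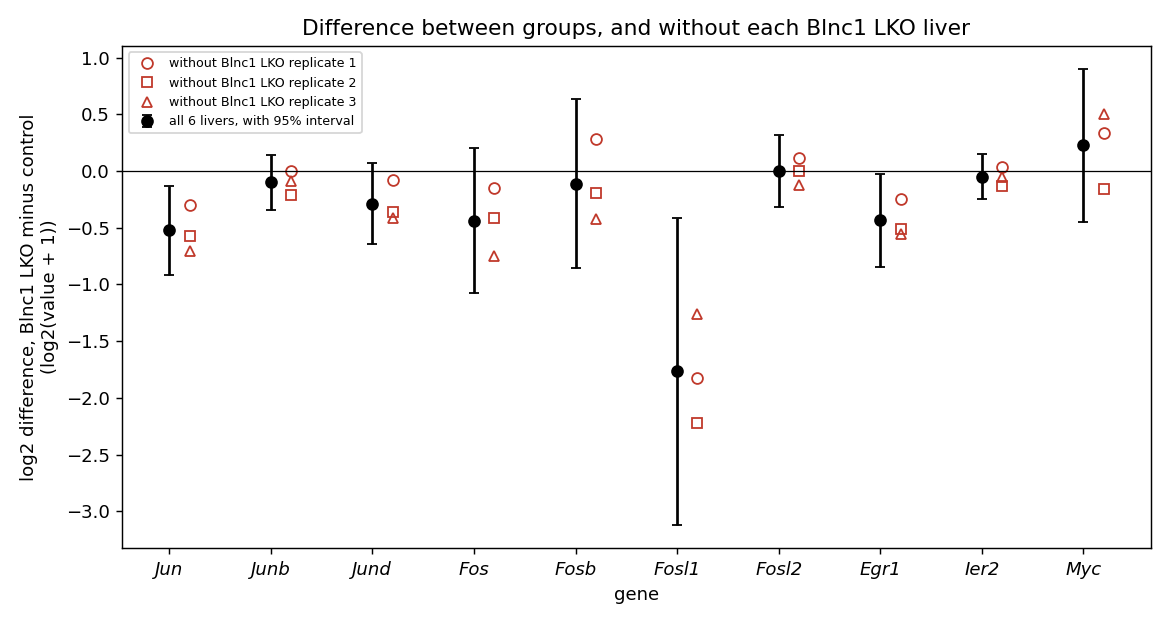
Log2 difference between Blnc1 LKO and control livers (vertical axis, log2(value + 1)) for the 10 genes; filled points are all 6 livers with the 95% interval of limma, and open symbols leave out 1 Blnc1 LKO liver. Without replicate 1 (open circles), Junb, Fosb, Fosl2 and Ier2 lie at or above 0 and Jun is at −0.30.

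The spread between livers of a group does not use the difference between groups. The SD of log2 values around the group means was 0.12 for Ier2, at the 45.1 percentile of all genes tested. It was 0.17 for Junb (59.0 percentile), 0.23 for Fosl2 (68.2 percentile) and 0.27 for Jund (72.1 percentile). Jun and Egr1 had 0.29 and 0.31 (74.4 and 75.8 percentile). Fos, Myc and Fosb followed with 0.48, 0.52 and 0.53 (85.2, 86.4 and 86.8 percentile), and Fosl1 had 0.75 on few reads. In 10 of 10 members the SD of log2 values was larger among Blnc1 LKO than among control livers, as in 67.0% of all genes. For Jun it was 0.41 against 0.06.

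Divided by the median transcript length of the gene (GENCODE M21), control levels ran from 3664 ± 299 (SD, n = 3) normalized counts per kb for Jund through 2103 ± 153 for Junb and 1409 ± 56.9 for Jun to 946 ± 24.3 for Ier2. Fos (598 ± 140), Myc (566 ± 91.6), Egr1 (559 ± 102) and Fosl2 (443 ± 69.4) formed a middle group whose neighbours did not differ beyond their spread. Fosb was far below at 24.8 ± 3.30, and Fosl1 lowest at 12.3 ± 4.39. With the longest transcript as length, Junb had 1337 per kb, less than Jun at 1409, and Fos had 231, beside 235 for Fosl2. In Blnc1 LKO livers, Jund had 3054 ± 703 per kb, Junb 1971 ± 301, Jun 1005 ± 270 and Ier2 918 ± 104, so Jun and Ier2 no longer differed beyond their spread.

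**Figure D3:**
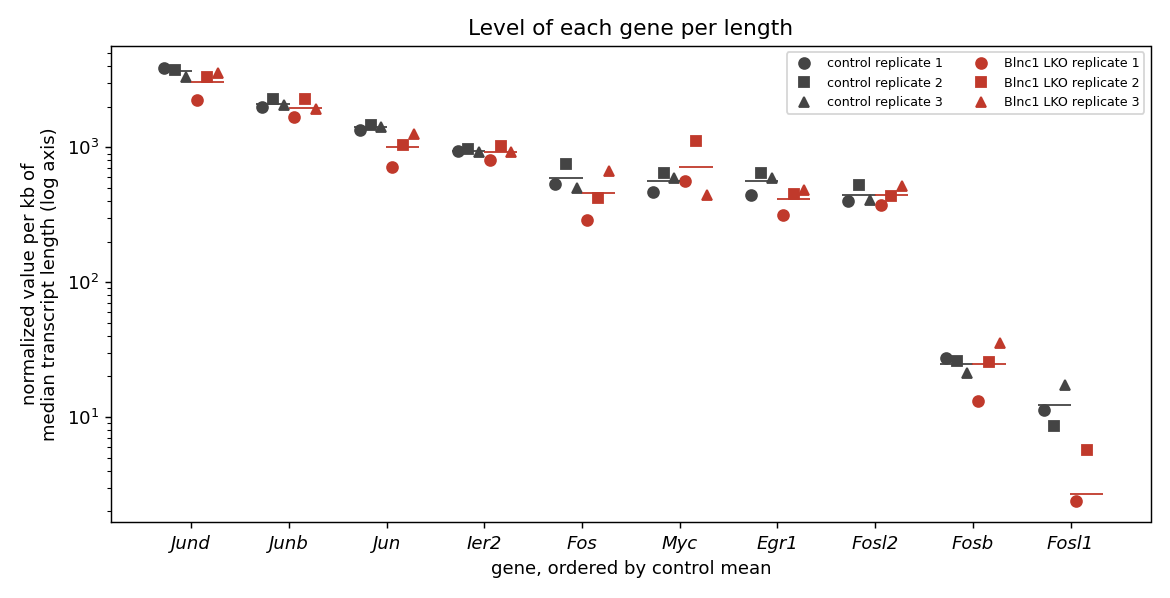
Normalized value per kb of median transcript length (vertical log axis) in each liver, for the 10 genes ordered by control mean (horizontal axis); short lines are group means, grey for control and red for Blnc1 LKO. Jund is highest at 3664 in control livers and Fosl1 lowest at 12.3; Fosl1 in Blnc1 LKO replicate 3 is at 0 and has no point.

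Other genes of the same pathway were taken from lists written from gene function, 125 genes in 8 lists, of which 124 were tested. None passed an adjusted p under 0.05 in limma or edgeR, and 8 had an unadjusted p under 0.05 in limma, 7 lower and 1 higher in Blnc1 LKO livers, beside 5.68% of all genes in either direction. DESeq2 called 1 of them, Mmp13.

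Of 26 other immediate early genes, 21 lay lower on average in Blnc1 LKO livers, and the median log2 difference was −0.14. With each liver left out it ranged from −0.22 (without Blnc1 LKO replicate 2) to −0.01 (without Blnc1 LKO replicate 1). None passed the adjustment. At an unadjusted p under 0.05 in limma, 4 were lower (2.74% of all genes) and 0 higher (2.94%). Klf6, a zinc finger factor of injured liver, had 3782, 3834 and 4167 in controls, against 2836, 3657 and 3362 in Blnc1 LKO livers. Nr4a2, an orphan nuclear receptor, had 159, 179 and 158 in controls, against 96.4, 140 and 123 in Blnc1 LKO livers. Both genes separated the groups (log2 differences of −0.26 and −0.48, adjusted p = 0.824 for both, limma). Every Blnc1 LKO liver lay below every control liver in 3 of the 26 (5.28% of all genes) and above in 0 (5.35%). The genes of smallest p on the other side were Nr4a1, a related receptor (log2 difference 0.30, standard error 0.20), and Errfi1, an inhibitor of the EGF receptor (0.09, standard error 0.08), and the groups overlapped in both. As among the members, Blnc1 LKO replicate 1 was often the lowest of the 6 livers, in 15 of the 26 (24.4% of all genes). Control replicate 2 was the highest control liver in 16 (32.1%).

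The kinases that act on AP-1 showed little difference in mRNA. Of 24 tested genes for JNK, ERK and p38 kinases and the SRF factors, 13 had a lower and 11 a higher mean, log2 differences ran from −0.16 to 0.13, and the median was −0.00. Mapk8, which encodes JNK1, had 1803, 1883 and 1839 in controls, against 2241, 1850 and 1917 in Blnc1 LKO livers, with the highest value in Blnc1 LKO replicate 1, where Jun was lowest. Elk3, a partner of SRF, had a log2 difference of −0.12 (standard error 0.06) with the groups apart. These are mRNA levels, and kinase phosphorylation or activity was not analysed here. Mapk10, the neuronal JNK gene, had at most 3 reads in any liver and was not tested.

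Among 14 MAPK phosphatases and feedback inhibitors, 11 lay lower on average in Blnc1 LKO livers and 0 had an unadjusted p under 0.05 (median log2 difference −0.08). Dusp10, a phosphatase of JNK and p38, had 582, 539 and 520 in controls, against 468, 478 and 509 in Blnc1 LKO livers. Dusp6, a phosphatase of ERK, had 7916, 7554 and 5707 in controls, against 5026, 5372 and 6896 in Blnc1 LKO livers, and overlapped. Dusp7 was on the other side, at 530, 589 and 573 against 595, 650 and 618. The 12 other AP-1 family genes and partners had a median log2 difference of −0.05, and none of them separated the groups. Atf3, a stress-induced partner of JUN, had 952, 1150 and 1111 in controls, against 676, 1164 and 939 in Blnc1 LKO livers.

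Of 16 known AP-1 target genes, 12 lay lower on average in Blnc1 LKO livers, with a median log2 difference of −0.15, and from −0.31 (without Blnc1 LKO replicate 2) to −0.08 (without Blnc1 LKO replicate 1) with each liver left out. Mmp13, the collagenase of mouse, had 613, 585 and 640 in controls, against 359, 459 and 448 in Blnc1 LKO livers. Its log2 difference was −0.54 (standard error 0.11, adjusted p = 0.548 in limma and 0.543 in edgeR), and DESeq2 called it (adjusted p = 0.0082). Plau, the urokinase plasminogen activator, had 923, 1005 and 979 in controls, against 695, 832 and 720 in Blnc1 LKO livers (adjusted p = 0.548, limma). Hmox1, heme oxygenase 1, which NRF2 also induces, lay apart on the higher side, with 4198, 4162 and 3438 in controls, against 4925, 4612 and 8018 in Blnc1 LKO livers. Mmp3 was also higher in every Blnc1 LKO liver, at 8.52 to 12.1 against 13.1 to 22.6, but on at most 27 reads in any liver. The target genes thus lay on both sides. The groups were apart in 3 of the 16 on the lower side (5.28% of all genes) and in 2 on the higher side (5.35%).

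The 12 MYC partner genes had a median log2 difference of −0.01 and the 14 known MYC target genes −0.04, with log2 differences of the targets from −0.13 to 0.01. Averaged over the target genes, Blnc1 LKO replicate 2, with Myc at 198% of the control mean, stood −0.06 from the control mean on the log2 scale, and replicate 1, with Myc at 99.8%, stood −0.06 too. Cad, an enzyme of pyrimidine synthesis, had 836, 842 and 883 in controls, against 647, 855 and 850 in Blnc1 LKO livers. Mxd1, which competes with MYC for MAX, had 672, 642 and 683 in controls, against 763, 703 and 726 in Blnc1 LKO livers. Mxd3 lay on the other side, at 93.2, 77.8 and 69.2 against 69.0, 68.6 and 60.2. The groups were apart in 1 of the 12 partner genes on the lower side (5.28% of all genes) and 1 on the higher side (5.35%).

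Heat shock genes also respond to acute stress. All 8 lay lower on average in Blnc1 LKO livers (median log2 difference −0.20), and 0 had an unadjusted p under 0.05. Control replicate 2 was the highest control liver in 8 of 8 (32.1% of all genes). Blnc1 LKO replicate 1 was the lowest of the 6 livers in 6 of 8 (24.4%). Hspb1 had 2197, 2535 and 1890 in controls, against 1466, 2105 and 1882 in Blnc1 LKO livers. With each liver left out, the median of these genes ranged from −0.30 (without Blnc1 LKO replicate 3) to −0.07 (without control replicate 2). What these genes share with the members was not tested.

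**Figure D4:**
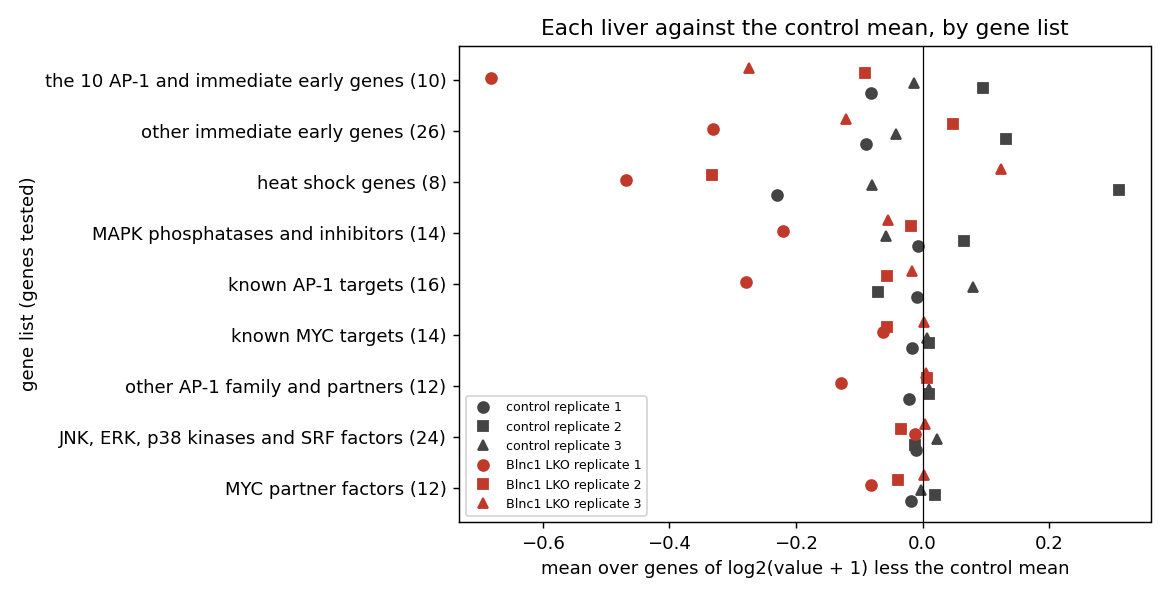
Mean over the genes of a list of log2(value + 1) less the control mean (horizontal axis), for each liver; rows are gene lists with the number of genes tested. Blnc1 LKO replicate 1 (red circle) is the lowest liver for the 10 genes at −0.68, for other immediate early genes at −0.33 and for heat shock genes at −0.47. The kinase and SRF genes lie within −0.03 to 0.02 in every liver. The mean of the 10 genes includes Fosl1, which had 0 to 8 reads and lowers that mean in each Blnc1 LKO liver.

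Markers of the cell types in the liver moved unevenly beside these genes, and their part in the values of the members was not tested. All of the hepatocyte markers were detected, with summed values from 6065215 to 6759177 in control and from 6143634 to 7351057 in Blnc1 LKO livers. Alb made up most of these sums (3821072 to 4358877 in control and 3780898 to 4651993 in Blnc1 LKO livers). Ass1 was an exception in counted reads, with at most 13 in any liver, and the reason for so few was not tested. Of 10 macrophage and monocyte markers, 8 had a higher mean in Blnc1 LKO livers (sums from 58758 to 63504 and from 68676 to 70085). Ccr2 and Cd68 had a lower mean. Ccr2 was lower in every Blnc1 LKO liver (2344, 2185 and 2423 in controls, against 1620, 1934 and 1994), and Cd68 overlapped. Of 10 endothelial markers 8 were lower (40647 to 42737 and 38169 to 40268), and of 10 stellate cell and fibroblast markers 8 were lower (106416 to 116446 and 90485 to 107146). Sums over 6 neutrophil markers ran from 1207 to 1664 in control and from 1071 to 5248 in Blnc1 LKO livers. The highest was in Blnc1 LKO replicate 3, mostly from S100a8 (1705) and S100a9 (2326). Jun, Jund, Fos, Fosb, Fosl2 and Egr1 were also highest there among Blnc1 LKO livers. Sums over 7 cholangiocyte markers (60122 to 72209 and 47710 to 72052) and 8 lymphocyte markers (1493 to 1993 and 1356 to 1923) overlapped. Spp1, also listed as an AP-1 target, made up most of the cholangiocyte sum (57143 to 67487 and 44457 to 67562). None of these markers was at 0 in any liver, and none passed the adjustment in limma. DESeq2 called 4 of the 10 stellate cell and fibroblast markers lower, namely Col1a1, Col3a1, Acta2 and Rgs5 (0.225% of all genes). It called the hepatocyte marker Cyp2e1 higher (0.26% of all genes).

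The genes whose pattern over the 6 livers was most like the mean of the 10 members were Pawr, Ccdc102a, Ets2, Myh9 and Olfml3, among 12480 genes with a mean value of at least 100. Their Pearson r with the mean log2 value of the members was 0.998, 0.998, 0.996, 0.996 and 0.992 over 6 livers that share their size factors, and 278 genes had an r over 0.9. Ets2, an ETS factor that ERK phosphorylates, had 4339, 4467 and 4421 in controls, against 3753, 4333 and 4139 in Blnc1 LKO livers. Myh9, nonmuscle myosin heavy chain, had 17665, 18570 and 18300 in controls, against 13724, 17488 and 16369 in Blnc1 LKO livers. The mean of the members was itself lowest in Blnc1 LKO replicate 1 and highest in control replicate 2. All 5 genes shared this, which their choice by likeness to that mean largely fixed. In Pawr, control replicate 1 and Blnc1 LKO replicate 2 were level at 1370. All 5 also lay higher in Blnc1 LKO replicate 2 than in replicate 3, as did the mean they were matched to. Jun, Jund, Fos, Fosb, Fosl2 and Egr1 had the reverse order. The mean of the members includes Fosl1, which had 0 reads in Blnc1 LKO replicate 3.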

How the data were processed

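RNA sequencing was performed by the authors on polyA-selected liver mRNA of 6 mice. Per the study's methods and the submitters' processing notes, reads were aligned to mm10 with STAR, counted per gene with HTSeq and tested with DESeq2, and the notes also name FastQC. Versions and gene annotation are not given in the sources used here. The deposited signal is read counts per gene divided by 1 size factor per liver, with no length correction. Columns named WT and KO with a number were matched to the control and LKO livers of that number. In each liver, 100% of values divided by what 1 read is worth came out whole (tolerance 0.01), which gave back the reads.

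limma (version 3.58.1, R 4.3.3, eBayes with a trend) was fitted to log2(value + 1) over 17297 genes with Benjamini-Hochberg adjustment, on all 6 livers without covariates. A fold change on this scale understates the change of low genes. Alternatives were a pseudocount of 0.1, no filter, at least 10 reads in every liver, a replicate block, each liver left out, edgeR (version 4.0.16) with TMM or library size alone, and DESeq2 (version 1.42.0) on the recovered reads. The fits were tested on simulated data. The labels name separate mice only by number. A limma p-value sets the difference between groups against the spread between these livers, moderated by a trend over all genes. Named beside the members are, per list, the 2 genes of smallest p in each direction with a mean of at least 10, genes past the threshold, and the 5 genes of most similar pattern. The members and lists were chosen with earlier results of these data known. Some related genes carry older symbols in the table, which were matched through RefSeq synonyms. The motifs TGACATCA and TGACG, and the member median without Fosl1, were added after the data were seen.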

Additional observations from a re-analysis of the deposited data

How the results depend on the processing

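None of the 10 members passed an adjusted p under 0.05 in any setting tried, and the smallest adjusted p of a member was 0.220 (DESeq2, Jun). Of all genes, 1 passed in limma, 2 without the filter on low values, 2 in edgeR with TMM, 84 in DESeq2 and 0 in limma with the replicate block, and with each liver left out from 0 to 13 (13 without Blnc1 LKO replicate 2). The deviations of same-numbered livers were hardly correlated (−0.06, −0.02 and −0.11 over 17297 genes). With so few livers per group, these values cannot decide whether same-numbered livers shared a batch, and the labels give only a number. With the replicate block the smallest adjusted p of a member was 0.598 (limma). Among the related lists, DESeq2 called 1 of the 16 AP-1 target genes and 0 of the other lists, and limma called 0 in every fit without 1 liver. The median log2 difference over the members ranged from −0.42 to −0.04 with each liver left out and was −0.11 without Fosl1 (chosen after the data were seen), and the log2 differences of Junb, Fosb, Fosl2, Ier2 and Myc changed sign in at least 1 of these fits. In edgeR and DESeq2, 7 of the 10 members were below 0, against 9 in limma. Fosb and Fosl1 are limited by depth, with 40 to 153 reads and 0 to 8 reads.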
